A study of Homo sapiens with 6 samples.

Results

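The genes described here are 10 transcription regulators of the growth and stimulus response: MYC, MYCN and MYCL, the AP-1 subunit genes JUN, JUNB, FOS, FOSB and FOSL1, and EGR1 and IER2. They were taken by name, and they are 10 of 19447 protein-coding genes of at least 1 kb on chromosomes 1 to 22 and X. The chromatin came from HEK293T, an established embryonic kidney cell line with the SV40 large T antigen, grown in serum-containing medium with no stimulus or other treatment in the labels. Chromatin fixed with 1% formaldehyde for 10 min was precipitated with an antibody from CST and another from Abcam against H2A.Z, a histone variant (lists H2AZ CST and H2AZ Abcam), and with antibodies against the variant H3.3, H4 acetylated at lysine 16 (H4K16ac) and H3 dimethylated at lysine 79 (H3K79me2), and sequenced. Each antibody had 1 library, the sixth library was input chromatin and was not used here, and the authors' peak lists are the data. With no replicates there is no spread between cultures and no p-value, and every value below describes these 5 libraries.

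MYC, MYCN and MYCL encode transcription factors of the basic helix-loop-helix leucine zipper type, which bind DNA as dimers with MAX and drive cell growth. Immediate early genes are transcribed within minutes of a growth signal without new protein synthesis. JUN and FOS proteins pair to form AP-1, EGR1 is a zinc finger factor, and IER2 is a small nuclear regulator. Their short genes are often held with a paused RNA polymerase at the start, H2A.Z and H3.3 mark nucleosomes beside active starts, and H3K79me2 is written by DOT1L along transcribed sequence.

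Nearly every member carried nearly every signal. A peak lay within 1 kb of an annotated end of the gene in 10 of 10 members for H2AZ CST, against 70.8% of all protein-coding genes. The count was 10 of 10 in H2AZ Abcam (71% of all genes) and 10 of 10 in H3.3 (64.5%). H4K16ac was found at 9 of 10 (55%), with MYC as the exception, and H3K79me2 at 9 of 10 (55.4%), with MYCN as the exception. All 5 lists had a peak at an end in 8 of the 10 members and in 38.2% of all genes. Members were 1830 to 8497 bp long, and among the 3821 protein-coding genes within that range the shares were 62% in H3.3, 62.3% for each H2AZ list, 47.2% in H3K79me2, 57.3% in H4K16ac and 35.3% for all 5 lists. The H4K16ac peaks in the members' windows had a median −log10 q of 7.45 (q is the caller's false discovery rate), the same as the whole H4K16ac list. With peaks of a −log10 q of at least 10 2 members kept one at an end, against 29.1% of all genes. Among the 10000 strongest peaks of each list, 5 members had an H3K79me2 peak at an end (43.4% of all genes) and 1 an H4K16ac peak (16.4%).

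With 10 kb added on both sides, the windows held 54 H2AZ CST, 44 H2AZ Abcam, 70 H3.3, 45 H4K16ac and 21 H3K79me2 peaks. The number of peaks per gene over all lists ran from 10 at MYCN and 11 at MYC and MYCL to 47 at JUNB and 48 at IER2. The counts of members with a peak did not move with the wider window, at 10 for both H2AZ lists and H3.3 and 9 for the marks, while the shares of all genes were 75.3% in H3.3, 82.9% in H2AZ CST, 83.2% in H2AZ Abcam, 65% in H3K79me2 and 70.6% in H4K16ac. The windows of JUNB, FOSL1 and IER2 also hold other protein-coding genes, and 13 of the 54 H2AZ CST peaks, 13 of the 45 H4K16ac peaks and 6 of the 21 H3K79me2 peaks lay on one of those. MYC had no H4K16ac peak anywhere in its window and MYCN no H3K79me2 peak in its window.

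**Figure D1:**
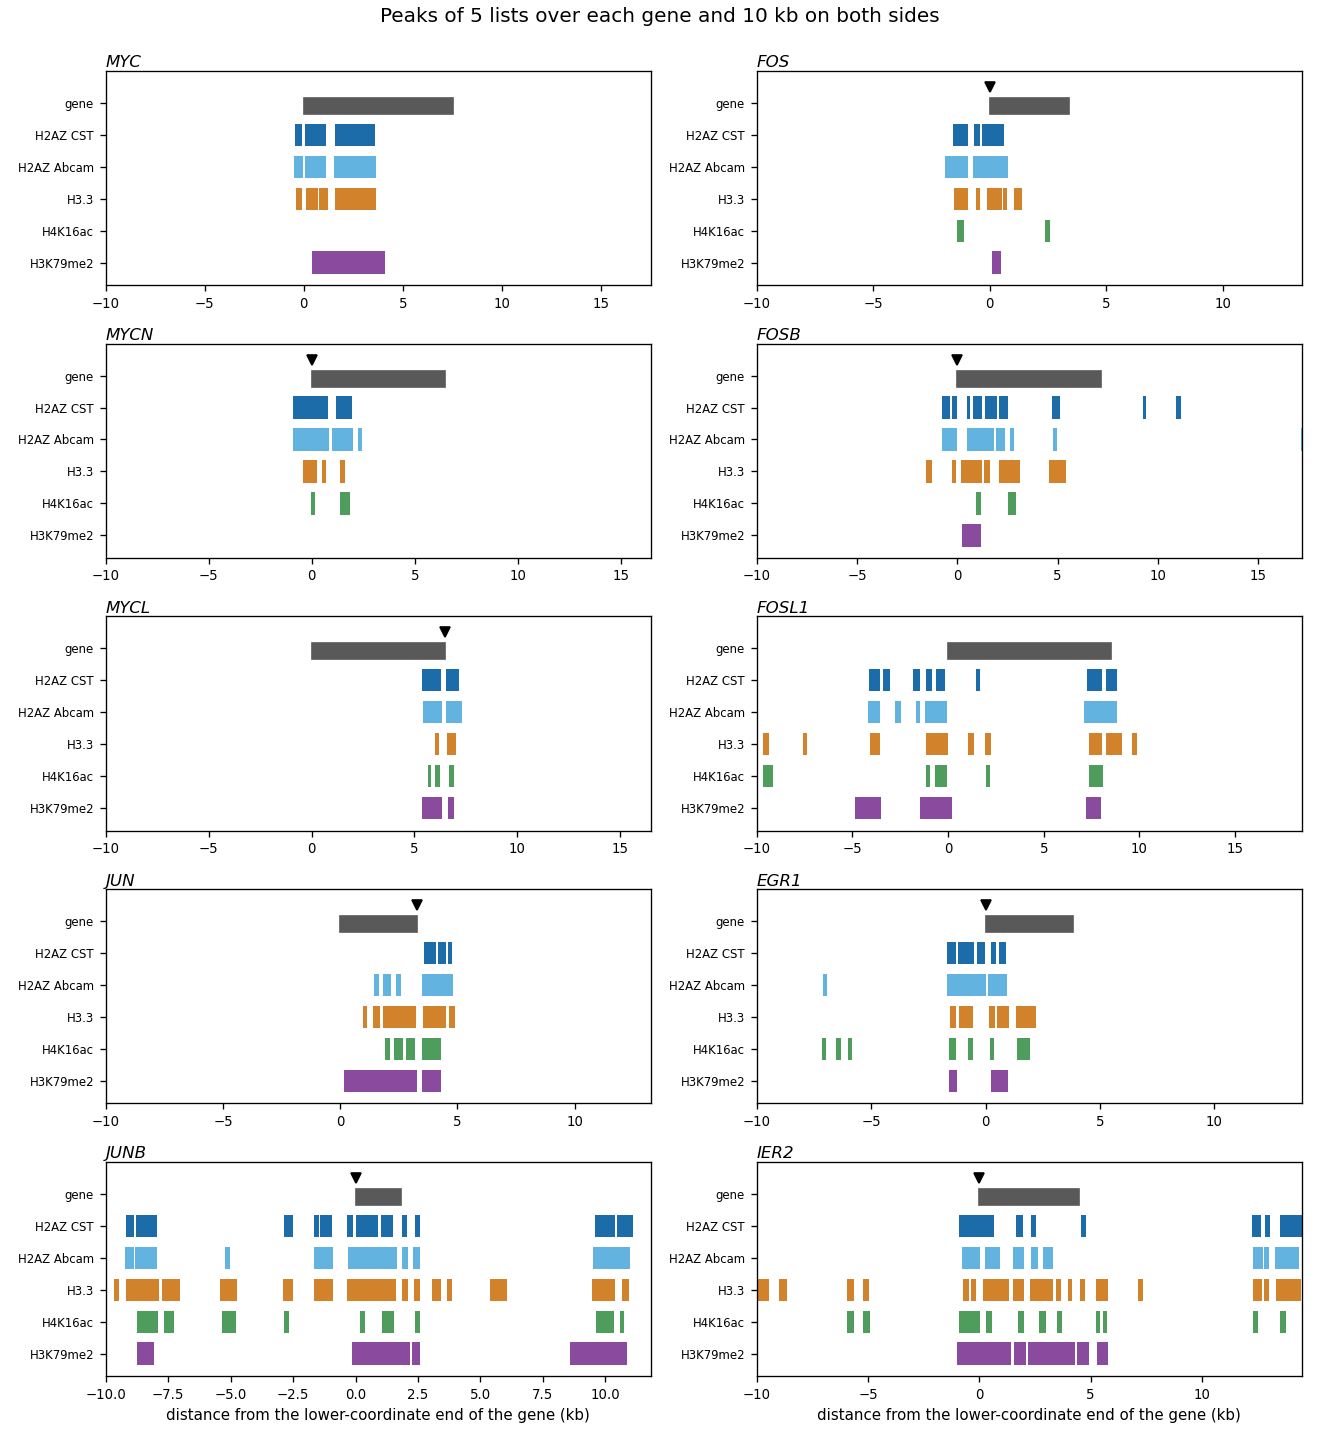
Peaks of the 5 lists (rows, coloured boxes) over each of the 10 genes (grey box) and 10 kb on both sides. The x axis gives the distance in kb from the lower-coordinate end of the gene, and a black triangle marks the annotated start of the 8 genes with one in the promoter table. Peaks cluster at 1 end of MYC, MYCN, MYCL, FOS, FOSB and EGR1, with some peaks farther off at FOS, FOSB and EGR1. They lie along the whole of JUNB and most of IER2. The H4K16ac row of MYC and the H3K79me2 row of MYCN are empty.

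H2A.Z covered a larger part of these genes than of most others. The share of a gene's bases under a peak had a median of 21.1% over the members for H2AZ CST, against 1.05% over all protein-coding genes and 4.93% over those within the members' length range. For H2AZ Abcam the medians were 26.8% in members, 1.2% in all genes and 5.99% in the length range. Bases under a peak of either H2AZ antibody made up 90.5% of JUNB, 47.3% of IER2, 42.2% of MYC, 37.0% of FOSB, 31.3% of MYCN, 23.0% of FOS, 22.2% of EGR1, 21.1% of JUN, 18.8% of FOSL1 and 15.1% of MYCL. FOS, EGR1 and JUN lie closer together in this order than the antibodies' own values for each of them, which were 17.6% for CST and 23.0% for Abcam at FOS, 14.5% and 22.2% at EGR1, and 0% and 21.1% at JUN. At least 50% of the gene lay under H2AZ CST in 1 member, JUNB, against 0.35% of all genes and 0.89% of those within the length range. JUNB was also the 1 member with at least 50% under H2AZ Abcam (0.586% and 1.67%). When each list was reduced to its 10000 strongest peaks, the members' medians were 7.61% in H2AZ CST and 14.0% in H2AZ Abcam, and the medians of all genes were 0%. The order of the genes changed too: under either H2AZ antibody JUNB was then at 0%, IER2 at 15.0%, MYC at 14.1% and JUN at 0%, while MYCN was at 28.5% and EGR1 at 22.2%. With a −log10 q of at least 10, JUN was at 0% and JUNB at 90.5%.

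By the median over members, H3.3 covered the largest share of a gene and H4K16ac the smallest, an order that did not hold in every member. The medians over members were 41.7% in H3.3 (0.83% over all genes, 6.82% in the length range), 17.7% in H3K79me2 (1.37% and 0%) and 10.4% in H4K16ac (0.5% and 4.2%). H3.3 peaks lay over at least 50% of JUN, JUNB and IER2, 3 of 10 members, against 3.56% of all genes and 10.7% of those within the length range. H3K79me2 did so in the same 3 genes, against 7.47% of all genes and 19.2% of those within the length range, and the other 7 members ranged from 0% at MYCN to 49.0% at MYC. H4K16ac reached 50% in 0 of 10 members (1.88% of all genes, 4.76% of the length range), with its highest share, 36.8%, at JUNB. Among the 10000 strongest peaks of each list the members' medians were 18.7% in H3.3, 1.19% in H3K79me2 and 0% in H4K16ac, and H4K16ac covered 0% of every member.

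**Figure D2:**
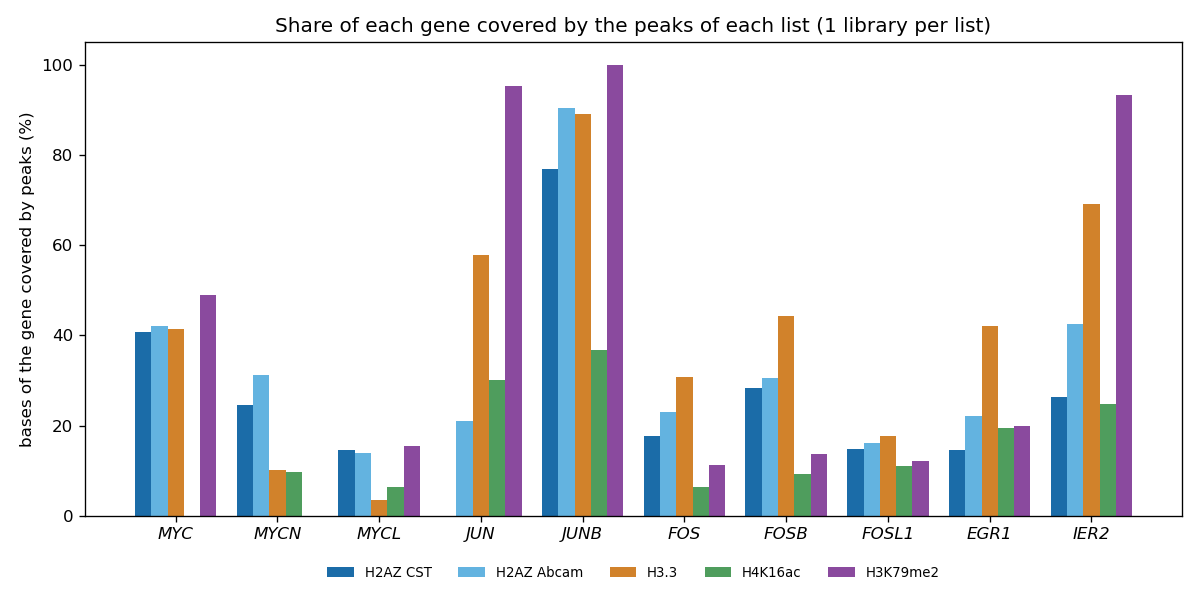
Percent of the bases of each gene covered by peaks of each list, 1 bar per list and 1 library per bar, so no error bars can be drawn. JUN, JUNB and IER2 have H3K79me2 bars of 95.3%, 100% and 93.3%, MYC has no H4K16ac bar, MYCN no H3K79me2 bar and JUN no H2AZ CST bar.

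MYC (chromosome 8, 127735434 to 127742951, hg38) had H2A.Z, H3.3 and H3K79me2 in the part next to its lower-coordinate end, and no peak more than 4103 bp past that end. At its ends the strongest −log10 q, the authors' value at the summit, was 31.7 in H2AZ CST, 146 in H2AZ Abcam, 60.4 in H3.3 and 191 in H3K79me2. Peaks covered 40.8%, 42.2%, 41.5% and 49.0% of MYC in these 4 lists in the same order. Where the H2AZ blocks broke, H3.3 broke too. H3.3 had another break, between peaks that ended at 690 bp and began at 748 bp, inside a peak of each H2AZ list. H2AZ CST peaks ran from 79 to 1114 bp and from 1575 to 3606 bp past the lower-coordinate end, H2AZ Abcam peaks from 79 to 1139 and from 1511 to 3618 bp, and the last H3.3 peak from 1548 to 3621 bp. A further peak of each of these lists lay before that end. A single H3K79me2 peak ran from 422 to 4103 bp, across the break between the H2AZ peaks inside the gene. No annotated gene lay within 1 kb of MYC, and the nearer boundary of the noncoding RNA gene CASC11 lay 1467 bp from it. Genes with peaks of the other 4 lists and no H4K16ac in their window made up 7.09% of all genes.

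MYCN (chromosome 2, 15940550 to 15947004), the paralog best known from neuroblastoma and from embryonic tissue, had H2A.Z, H3.3 and H4K16ac at its start and no H3K79me2. Its strongest end peaks had a −log10 q of 24.3 in H2AZ CST, 132 in H2AZ Abcam, 12.2 in H3.3 and 4.03 in H4K16ac. The H4K16ac value lay at the 3.16th percentile of the genes with such a peak, H3.3 at the 24.0th, H2AZ CST at the 32.6th and H2AZ Abcam at the 61.6th. H2AZ CST covered 24.7% of the gene, H2AZ Abcam 31.3%, H3.3 10.0% and H4K16ac 9.7%. The antisense gene MYCNOS overlaps MYCN by 1884 bp at the start, and peak lists carry no strand, so signals of the pair cannot be told apart there. Genes with every list but H3K79me2 in their window made up 10.5% of all genes.

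MYCL (chromosome 1, 39895428 to 39901917), the member of the family found amplified in small cell lung cancer, had the strongest H2AZ Abcam end peak of the 10 members. Its −log10 q was 376, at the 99.6th percentile of genes with an end peak in that list, while H2AZ CST had 64.0, at the 83.6th. H3.3 had 27.1, H4K16ac 8.53 and H3K79me2 45.3, the last at the 21.3rd percentile. The strongest peaks of H2AZ CST, H2AZ Abcam, H3.3 and H4K16ac lay just upstream of the start, that of H3K79me2 just downstream, and H3.3 covered 3.41% of the gene, the lowest H3.3 share among the members. All 3 MYC family genes had H2A.Z at an end, with H3K79me2 over 49.0% of MYC, 0% of MYCN and 15.5% of MYCL.

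JUN (chromosome 1, 58780791 to 58784047), the founding AP-1 subunit, is a gene without introns that was covered by H3K79me2 over 95.3% of its length and by H2AZ CST over 0%. That combination, at least 90% under H3K79me2 and none under H2AZ CST, was found in 0.494% of all genes. A peak of H2AZ CST lay inside 9 of the 10 members, all but JUN, against 75.1% of all genes. The strong H2A.Z peaks of JUN lay upstream, with the edge nearest the start at −312 bp in H2AZ CST and at −226 bp in H2AZ Abcam (positions count from the start base as 0, in the direction of the gene). The Abcam list also held 3 weak peaks inside the gene, with a −log10 q of 6.48 to 9.28. The strongest end peaks had a −log10 q of 37.1 in H2AZ CST, 162 in H2AZ Abcam, 73.2 in H3.3, 54.8 in H4K16ac and 619 in H3K79me2. H4K16ac stood at the 99.6th percentile of genes with an end peak, the highest among the members, and H3K79me2 at the 93.2nd. That H4K16ac peak lay upstream, from −1057 to −235 bp, and the H4K16ac peaks inside JUN had a −log10 q of 6.66 to 10.1. The noncoding RNA gene JUN-DT lies 1104 bp from JUN.

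Between the blocks on either side of the JUN start lay 187 bases that no list covered, from −222 to −36. The sequence below shows where that stretch lies in the 250 bases before the start (chr1:58784048-58784297, minus strand, from RefSeq's GRCh38.p14), with the bases outside all peaks in capitals. The stretch held a CCAAT box (CCAAT, found in 36% of 15412 protein-coding promoters on either strand) from −87 to −83. It held TGACATCA, a variant AP-1 site known from this promoter, from −67 to −60, which 2.12% of the promoters have. It also held 2 GC boxes (GGGCGG, 59.6% of promoters). A match is a description of letters, not of a bound factor.
JUN: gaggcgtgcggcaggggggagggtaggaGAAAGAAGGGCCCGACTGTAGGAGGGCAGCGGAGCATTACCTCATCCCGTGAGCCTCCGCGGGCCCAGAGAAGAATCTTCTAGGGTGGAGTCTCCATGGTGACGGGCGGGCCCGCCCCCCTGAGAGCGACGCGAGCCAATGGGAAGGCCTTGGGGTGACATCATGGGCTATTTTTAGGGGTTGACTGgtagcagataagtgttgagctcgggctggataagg

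JUNB (chromosome 19, 12791486 to 12793315), which encodes an AP-1 subunit that often acts against JUN, was under peaks nearly from end to end. H2AZ CST covered 77.0%, H2AZ Abcam 90.5%, H3.3 89.0%, H4K16ac 36.8% and H3K79me2 100% of its 1830 bp. Among the 10000 strongest peaks of each list, H3.3 and H3K79me2 kept these shares, and both H2AZ lists and H4K16ac covered 0%. H4K16ac also covered 0% with a −log10 q of at least 10. With all peaks, the H2AZ Abcam share of 90.5% was at the 100th percentile of genes within the length range. The H3.3 share of 89.0% was at the 98.8th. The peaks were not unusually strong for H2A.Z: the −log10 q at an end was 37.5 in H2AZ CST and 106 in H2AZ Abcam, at the 53.6th and 50.4th percentiles, and both of those peaks lay upstream, on HOOK2. The strongest H2A.Z peaks inside JUNB had 24.9 in H2AZ CST and 82.7 in H2AZ Abcam. The end value was 66.7 in H3.3, 9.53 in H4K16ac and 181 in H3K79me2. HOOK2 overlaps the first 865 bp of JUNB, and the strongest H3K79me2 peak in the window, with a −log10 q of 548, lay on PRDX2 and THSD8.

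FOS (chromosome 14, 75278828 to 75282230), the partner of JUN in AP-1, had strong variants and weak marks. Its strongest end peaks had a −log10 q of 55.2 in H2AZ CST, 241 in H2AZ Abcam and 99.9 in H3.3, at the 76.3rd, 91.2nd and 96.7th percentiles of genes with an end peak. H4K16ac had 4.15 and H3K79me2 11.1, at the 4.41st and 5.98th percentiles. The H4K16ac peak lay at the far end of FOS, and another, of 8.42, ran from −1400 to −1087 bp. The strongest H3.3 and H2AZ Abcam peaks were upstream of the start, from −1552 to −933 bp for H3.3 and from −1919 to −940 bp for H2AZ Abcam. No other protein-coding gene lay within 10 kb.

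FOSB (chromosome 19, 45467996 to 45475179), whose splice form lacking the end of the protein accumulates in neurons, also ranked higher in the variants than in the marks. The strongest end peaks had a −log10 q of 51.6 in H2AZ CST, 136 in H2AZ Abcam, 48.7 in H3.3, 6.43 in H4K16ac and 19.7 in H3K79me2. The percentiles were 72.5, 63.2 and 80.0 for the variants and 20.9 and 11.2 for the marks. H3.3 covered 44.3% of FOSB and H3K79me2 13.6%, the H3K79me2 share in 1 peak from 219 to 1198 bp past the start.

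FOSL1 (chromosome 11, 65892049 to 65900545), which encodes FRA1, an AP-1 subunit without the transactivation region of FOS, had its own block at the higher-coordinate end. There the −log10 q was 53.5 in H2AZ CST, 199 in H2AZ Abcam, 46.2 in H3.3, 12.6 in H4K16ac and 13.6 in H3K79me2. An H3K79me2 peak with a −log10 q of 583 also touched the other end of FOSL1, but its summit lay at −580 bp from that end, inside CCDC85B, and 203 bp of it lay inside FOSL1. With the 13.6 in its place, the 3 FOS family genes had H3K79me2 end peaks between 11.1 and 19.7.

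EGR1 (chromosome 5, 138465479 to 138469303), the zinc finger factor induced by serum and by neuronal activity, had H3.3 beyond its H2A.Z and weak H3K79me2 peaks. The strongest end peaks had a −log10 q of 29.2 in H2AZ CST, 161 in H2AZ Abcam, 23.0 in H3.3, 7.12 in H4K16ac and 9.56 in H3K79me2. The H3K79me2 value was at the 4.68th percentile, and with peaks of a −log10 q of at least 10 that end peak was lost. Another H3K79me2 peak, of 10.45, lay upstream from −1578 to −1263 bp and passed that threshold. H3.3 covered 42.0% of EGR1, with its strongest peak inside the gene, of 30.8, from 1343 to 2196 bp past the start, where neither H2AZ list had a peak.

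IER2 (chromosome 19, 13150411 to 13154911) was covered by H3K79me2 over 93.3% of its length, in 4 peaks that reach past both ends. At its ends the strongest −log10 q was 56.5 in H2AZ CST, 132 in H2AZ Abcam, 59.5 in H3.3, 9.51 in H4K16ac and 580 in H3K79me2. The H3.3 peak of 59.5 lay beyond the far end, and H3.3 was strongest inside the gene, at 98.6 between 1528 and 2028 bp. H2AZ CST covered 26.3% of IER2 and H2AZ Abcam 42.6%. The higher-coordinate boundary of STX10 lies 36 bp before the start of IER2. Whether it is the start or the far end of STX10 was not examined. The H2AZ peaks across the start of IER2 lie on both genes, and the summits of those of 56.5 and 132 lay in STX10. The strongest H2AZ end peaks with a summit outside STX10 had 8.51 in H2AZ CST and 23.4 in H2AZ Abcam. The H3K79me2 peak of 580, from 2174 to 4297 bp, lies inside IER2.

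**Figure D3:**
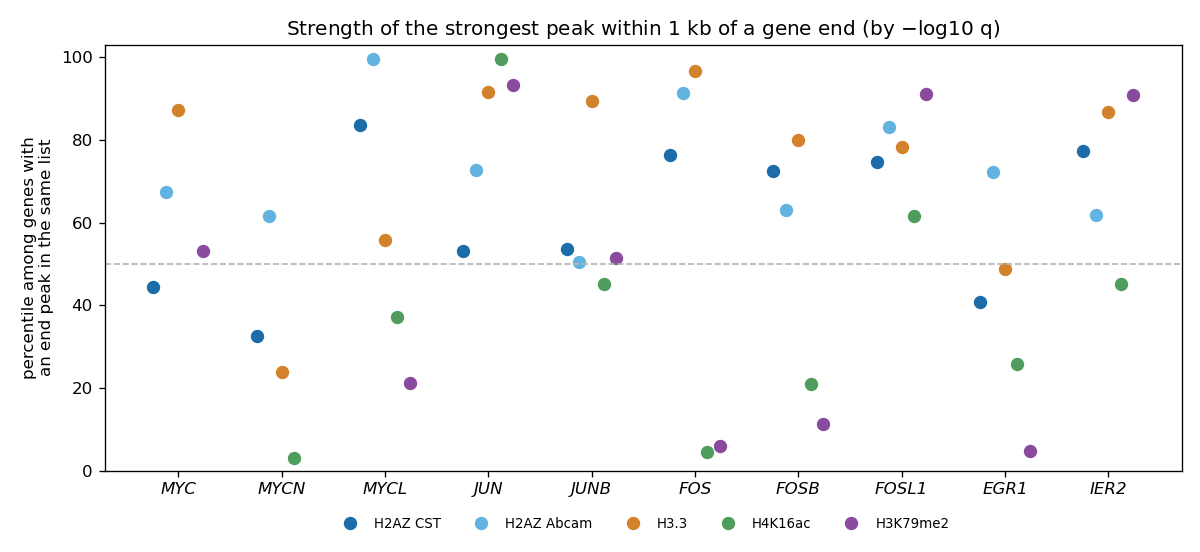
Percentile of each gene's strongest peak within 1 kb of an end, by −log10 q, among all protein-coding genes with an end peak in the same list (y axis), for the 10 genes (x axis) and 5 lists (colours). The dashed line is the 50th percentile. H3.3 points lie above it at 8 genes and H4K16ac points below it at 7 of 9, and the H3K79me2 points of FOS, FOSB and EGR1 lie under 12 while those of JUN, FOSL1 and IER2 lie above 90, and that of FOSL1 is the peak with its summit in CCDC85B.

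Set against all genes with an end peak, the members' H3.3 peaks were high in their list and the H4K16ac peaks low. The median percentile over members was 83.3 in H3.3, 69.8 in H2AZ Abcam, 63.1 in H2AZ CST, 51.5 in H3K79me2 and 37.3 in H4K16ac. Using peaks whose summit lay in no other protein-coding gene, an alternative added after the data were seen, the H3K79me2 median was 21.3, with FOSL1 at 7.66 in place of 91.1. The median was then 79.1 in H3.3, 69.8 in H2AZ Abcam, 48.9 in H2AZ CST and 37.3 in H4K16ac. Only the members' peaks were restricted in this way, and they were ranked against the unrestricted peaks of all genes. A member's percentile could therefore stay or fall but not rise. A percentile within a list carries no comparison of amounts between lists.

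At the starts themselves, the H2A.Z blocks of several members stopped short on both sides. The annotated start was tabulated for 8 members, all but MYC and FOSL1, and for 15412 of all protein-coding genes. The start base itself was under H2AZ CST in 3 of 8 members (38.4% of those genes), under H2AZ Abcam in 5 (49.4%), under H3.3 in 3 (25.3%), under H4K16ac in 2 (12.9%), under H3K79me2 in 3 (41.3%) and under any list in 6 (62.8%). With H2AZ CST it lay outside peaks with peaks on both sides within 1 kb in 4 of 8 members (MYCL, JUNB, FOSB and EGR1), against 17.9% of the 15412 genes. It did so with H3.3 in 5 of 8 (MYCL, JUN, FOSB, EGR1 and IER2; 15.9%), with H2AZ Abcam in 3 of 8 (MYCL, JUN and FOSB; 12.2%), with H4K16ac in 3 of 8 (9.07%) and with H3K79me2 in 1 of 8 (4.17%). With all lists joined it did so in 2 of 8, MYCL and FOSB (9.27%). These shares are of all 15412 genes, with or without a peak within 1 kb of the start. In H2AZ CST all 8 members and 10927 of the genes had such a peak. Of those 10927, the start base was covered in 5924 and lay between peaks in 2760. In H3.3 all 8 members and 9848 genes had one, with 3905 covered and 2454 between peaks. At MYCL a stretch of 177 bp from −36 to 140 bp was covered by no list, and at FOSB one of 215 bp from −10 to 204 bp. At EGR1 the uncovered stretch was 76 bp, from 27 to 102 bp. At MYCN and FOS, both H2AZ lists' and H3.3 peaks crossed the start base. Gaps of single lists were wider in places. At EGR1 the H3.3 peaks nearest the start had edges at −533 and 150 bp. At JUN those of H2AZ Abcam had edges at −226 and 660 bp, with a weak downstream peak (−log10 q 6.48). Libraries were selected for fragments of 250 to 450 bp, and the part of fragment length in these gaps was not tested.

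**Figure D4:**
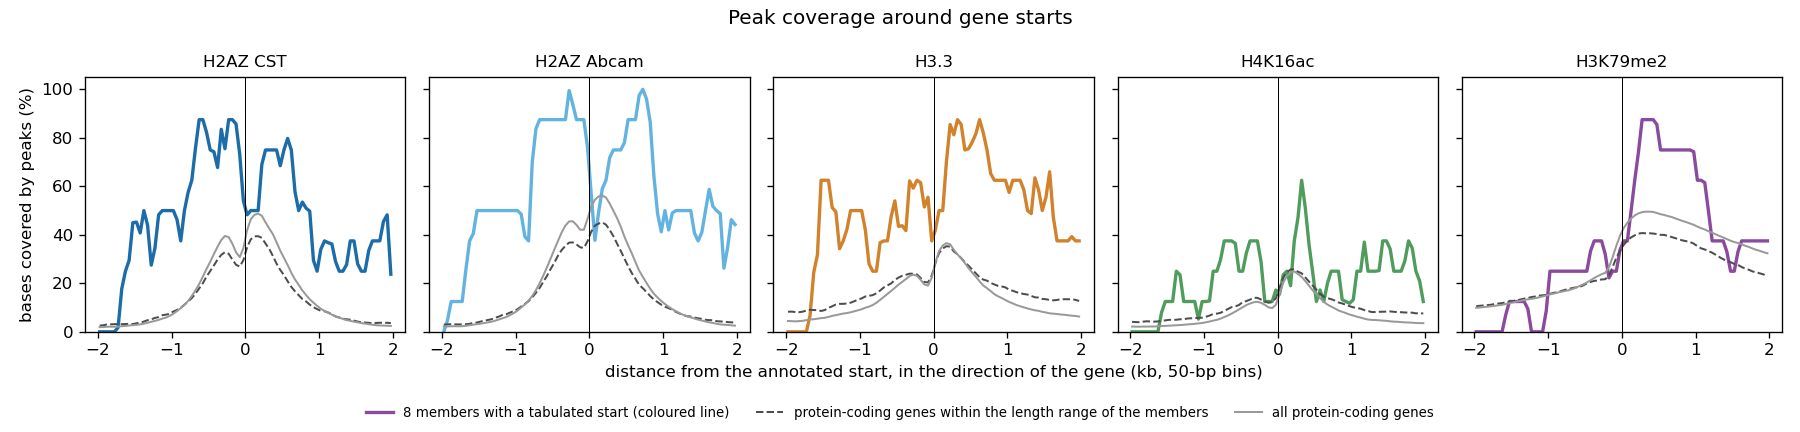
Percent of bases covered by peaks in 50-bp bins around the annotated start (x axis, kb, in the direction of the gene), for the 8 members with a tabulated start (thick coloured line), protein-coding genes within the members' length range (dashed) and all protein-coding genes (grey). For H2AZ CST the members' coverage is 87.5% in the bin from −250 to −201 bp, 48.3% in that from 0 to 49 bp and 75.0% in that from 250 to 299 bp, against 39.0%, 41.9% and 45.2% in all genes. For H3K79me2 it reaches 87.5% at 250 to 299 bp, against 49.4% in all genes.

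The promoters are shown next for the 3 members with a TATA box and for EGR1, which has CArG boxes. A TATA box (TATAAA) was found within 250 bases before to 50 after the start of JUNB, FOS and FOSB, 3 of 8 members, against 8.88% of 15412 promoters. The core of the cyclic AMP response element, TGACG, was found in 6 of 8 members, JUN, JUNB, FOS, FOSB, EGR1 and IER2, against 29.5%. A CArG box, the motif of serum response factor, was found in EGR1 alone of the 8, with 2 matches, against 1.21% of promoters. The known serum response element of FOS lies further upstream than this window. The full TGACGTCA (2.59%), the AP-1 site TGANTCA (5.75%), the E-box CACGTG of MYC (9.04%) and the EGR site GCGGGGGCG (6.89%) had no match in these 8 windows, which says only that those letters are absent there. Both strands were searched, and each TGACGTCA also counts as a TGACG. MYC and FOSL1 were not searched. In the 250 bases before the start, given from RefSeq's GRCh38.p14, capitals mark TATAAA, the CArG boxes and TGACG or its reverse complement. The windows are chr5:138465229-138465478 (EGR1), chr14:75278578-75278827 (FOS), chr19:45467746-45467995 (FOSB) and chr19:12791236-12791485 (JUNB), all on the plus strand.
EGR1: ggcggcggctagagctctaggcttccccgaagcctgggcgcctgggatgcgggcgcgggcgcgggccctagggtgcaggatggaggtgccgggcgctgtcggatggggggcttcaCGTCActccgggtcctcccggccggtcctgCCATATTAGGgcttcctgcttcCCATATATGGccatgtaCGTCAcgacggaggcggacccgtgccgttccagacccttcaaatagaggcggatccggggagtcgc
FOS: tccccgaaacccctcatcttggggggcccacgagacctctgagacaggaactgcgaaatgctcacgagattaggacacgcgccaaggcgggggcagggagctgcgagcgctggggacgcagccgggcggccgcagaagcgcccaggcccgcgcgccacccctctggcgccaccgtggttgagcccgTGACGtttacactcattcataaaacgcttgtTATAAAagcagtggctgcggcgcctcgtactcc
FOSB: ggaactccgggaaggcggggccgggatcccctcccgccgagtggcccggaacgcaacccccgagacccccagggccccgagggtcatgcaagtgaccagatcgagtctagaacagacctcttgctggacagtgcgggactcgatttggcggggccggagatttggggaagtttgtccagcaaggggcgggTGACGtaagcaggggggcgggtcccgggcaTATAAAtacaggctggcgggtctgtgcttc
JUNB: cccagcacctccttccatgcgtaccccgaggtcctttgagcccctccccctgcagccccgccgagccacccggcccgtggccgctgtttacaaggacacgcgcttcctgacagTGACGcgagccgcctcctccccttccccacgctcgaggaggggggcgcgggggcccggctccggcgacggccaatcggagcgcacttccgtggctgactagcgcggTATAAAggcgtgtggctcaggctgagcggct

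At EGR1 both CArG boxes, from −105 to −96 and from −83 to −74, lay under H2A.Z in both lists. The H2AZ CST peak ended at −8 bp and the H2AZ Abcam peak at 26 bp. The nearest upstream peaks of the other lists ended at −533 bp (H3.3), −555 bp (H4K16ac) and −1263 bp (H3K79me2), so those boxes lay outside the peaks of H3.3 and of both marks. The TATA boxes began at −33 in FOS, −30 in FOSB and −31 in JUNB. That of FOS lay under both H2AZ lists and H3.3. At JUNB it lay under H2AZ Abcam, H3.3 and H3K79me2 and in the gap of H2AZ CST, whose edges were at −108 and 7 bp. At FOSB it lay under H2AZ Abcam and across the edge of the H2AZ CST peak, which ended at −28 bp.

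Within the members' windows, H2A.Z bases were largely shared between antibodies and with H3.3. Of 28841 bases under H2AZ CST, 89.1% were under H2AZ Abcam, and of 33069 under H2AZ Abcam, 77.7% were under H2AZ CST, against 80.0% and 71.2% in the windows of all genes. H3.3 covered 75.7% of the H2AZ CST bases, against 52.7% in all windows, and H2AZ CST covered 57.5% of the H3.3 bases, against 32.1%. Of the 15647 H4K16ac bases, 86.1% were under H3.3 (56.7% in all windows) and 59.0% under H2AZ CST (22.2%). In the other direction H4K16ac covered 35.4% of the H3.3 bases, against 52.2% in all windows, and 32.0% of the H2AZ CST bases, against 33.5%. Of the 26943 H3K79me2 bases, 54.1% were under H2AZ CST, against 11.5% in all windows. This comparison was not matched on gene length.

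Other genes of the same pathways were described in the same way, from lists of partners, regulators and targets. Among 24 other immediate early genes, H2AZ CST and H2AZ Abcam lay at an end in 24 each and H3.3 in 23, against 70.8%, 71% and 64.5% of all genes. H4K16ac lay at 14 of them (58.3%, against 55%) and H3K79me2 at 15 (62.5%, against 55.4%), shares near those of all genes. Their median gene was covered over 13.1% by H2AZ CST and 20.7% by H3.3. MCL1, an antiapoptotic BCL2 family gene, and KLF10, a zinc finger factor induced by TGF-β, had the highest −log10 q at an end when summed over the lists other than H2AZ Abcam, with H3K79me2 over 100% and 42.8% of the gene. Among 13 other AP-1 subunits the counts were 10 in H2AZ CST, 12 in H2AZ Abcam, 10 in H3.3, 8 in H4K16ac and 9 in H3K79me2. As shares these were 76.9%, 92.3%, 76.9%, 61.5% and 69.2%, against 70.8%, 71%, 64.5%, 55% and 55.4% of all genes. ATF4, the factor of the integrated stress response, and JUND led them by the same sum. JUND, the AP-1 subunit that many resting cells express, had H3K79me2 over 96.9%, H2AZ CST over 0% and H2AZ Abcam over 18.7% of the gene. ATF3 had no peak at an annotated end, but peaks of all lists inside.

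The same shares of all genes stand as the background of the next 4 lists. Among 12 partners in the MYC network, H2AZ CST, H2AZ Abcam and H3.3 lay at an end of all 12, H3K79me2 at 11 (91.7%, against 55.4% of all genes) and H4K16ac at 9 (75%, against 55%). They were led by MXD3, which competes with MYC for MAX, and by MAX, with end H3K79me2 of −log10 q 623 and 635. Among 14 textbook MYC targets H3.3, H4K16ac and H3K79me2 lay at an end of 14 each and both H2AZ lists at 13 each (92.9%, against 70.8% and 71% of all genes). H3K79me2 covered 64.8% of the median target and 1.37% of the median gene of all, and the targets were led by NCL, the nucleolar protein nucleolin, and NOP56, a box C/D snoRNP protein. In the 16 genes between growth signal and serum response factor, H3K79me2 and both H2AZ lists were at 15 each (93.8%), H4K16ac at 13 (81.2%) and H3.3 at 14 (87.5%), led by the stress kinase gene MAPK14 and by SRF, which encodes serum response factor. MRTFB, a cofactor of SRF, had no end peak. The 13 pause and elongation factors had H2AZ CST, H2AZ Abcam and H3K79me2 at all 13, H4K16ac at 10 (76.9%) and H3.3 at 11 (84.6%), and included NELFA, a subunit of the pausing factor NELF. H2AZ CST covered a median of 21.1% of the 10 members, against 13.1% of the other immediate early genes, 4.26% of the MYC partners, 4.01% of the other AP-1 subunits, 3.53% of the MYC targets, 1.29% of the elongation factors and 0.68% of the upstream regulators, and 1.05% of all genes. Gene length differs between these lists.

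The genes most like MYC in the share of the gene and 10 kb around under each of the 5 lists were ANKRD34A, IER3 and CD63. Likeness was the Euclidean distance over the 5 percentages, which was 3.04, 3.23 and 4.38 percentage points. MYC had 12.4% under H2AZ CST, 13.1% under H2AZ Abcam, 12.4% under H3.3, 0% under H4K16ac and 13.4% under H3K79me2. IER3, an immediate early gene of stress and growth signals, had 11.2%, 12.4%, 9.78%, 1.07% and 14.0% in the same order.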

How the data were processed

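The tools named in the submitters' processing notes are MACS2 2.1.0, Bowtie 1.1.2, Trimmomatic 0.33 and bcl2fastq 2.17, with build hg38. Settings, duplicate handling, use of the input library and read depth were not given in the sources used here. Per antibody the authors deposited 1 peak list with summit, fold enrichment (a linear ratio), −log10 p-value, −log10 q-value and a display score. Only positions and −log10 q are reported, −log10 q to rank peaks within a list. It depends on depth and peak width. Copy number at single loci of HEK293T could not be checked.

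Genes came from RefSeq (GRCh38.p14, the assembly of hg38), which gives ends but no exons or UTRs. Starts and sequences came from RefSeq's promoter table (8 of the 10 members matched). Peaks overlapped a window by at least 1 bp, ends were taken as 1 kb on both sides of each annotated end, and coverage merged touching peaks. Code was checked on simulated intervals (Python 3.11.15, pandas 2.3.3). The members, the 6 gene lists and the motifs were chosen with earlier results of these data known, and start-site measures and motifs were added after the peaks were seen. Named genes are the members, up to 2 strongest and 2 without end peaks per list, and the 3 nearest to MYC. Strongest means the highest summed −log10 q at an end over H2AZ CST, H3.3, H4K16ac and H3K79me2. A gene that this rule also names is not reported here.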

Additional observations from a re-analysis of the deposited data

How the results depend on the processing

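Each antibody has 1 library, and the lists hold no read counts, so depth limits are unknown and the calls rest on the authors' threshold. No paired analysis was possible because each group has 1 sample. Of 35 alternative counts of members that had an end peak, 32 stayed within 1.5 times, as did 18 of 20 for the 10 kb windows. Both sets include wider windows (2 kb around ends, 20 kb flanks), which could only keep or raise a count. With a −log10 q of at least 10, H4K16ac at an end was found in 2 members. Each list was also cut to its 10000 strongest peaks. H4K16ac was then at an end in 1 member (16.4% of all genes) and H3K79me2 in 5 (43.4%). H2AZ CST and H3.3 fell from 10 members to 7 each (37.4% and 28.3% of all genes), which still counts as within 1.5 times. H2AZ Abcam stayed at 10 (39.4%). In the 10 kb windows H4K16ac was in 3 members (30.3% of all genes) and H3K79me2 in 5 (52.4%). The cause was not tested beyond the smaller number of peaks. For shares, any change of value counted as a move, however small. By that measure the median share of the gene covered moved with every setting. With a −log10 q of at least 10 it was 14.8% in H2AZ CST, 25.5% in H2AZ Abcam, 38.6% in H3.3, 2.91% in H4K16ac, 14.6% in H3K79me2, 25.8% in either H2AZ list and 13.0% in both. With the 10000 strongest peaks it was 7.61%, 14.0%, 18.7%, 0%, 1.19%, 15.6% and 0.57% in the same order. With 1 kb added on both sides of each gene it was 26.6%, 32.1%, 35.7%, 11.5%, 17.2%, 33.3% and 24.2%. Of the shares of single members, 57 kept their value and 153 changed by any amount. The start bases of MYCL and FOSB were covered by no list in the full lists and in both reduced sets.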

Other observations

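Some peaks in the flanks lay away from any annotated gene. The strongest H2AZ CST peak in the windows of the 10 genes, with a −log10 q of 73.0, lay from 12255 to 12664 bp past the start of IER2, beyond the far end of that gene. H2AZ Abcam had 144 there, H3.3 34.7 and H4K16ac 17.3, and H3K79me2 had no peak. Upstream of EGR1, an H2AZ Abcam peak with a −log10 q of 7.71, from −7111 to −6927 bp, overlapped an H4K16ac peak of 4.41, and 2 more H4K16ac peaks of 3.2 and 3.4 followed towards the gene, with no peak of H2AZ CST, H3.3 or H3K79me2.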
